A study of Rattus norvegicus with 18 samples.

Results

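Rat pups exposed to oxycodone (oxy) by either of 2 routes were compared, as one exposed group, with saline pups in the prefrontal cortex (PFC) at postnatal day 14 (P14). The exposed group held 12 of the 18 pups in the series and was taken from the sample titles alone. It comprised 6 post-natal (PNO) pups and 6 in utero (IUO) pups, and the remaining 6 pups were saline controls (SAL). All pups were Sprague Dawley rats, and the labels give no engineered allele. PNO dams received 15 mg/kg/day oxy by oral gavage from parturition to weaning. IUO dams started at 10 mg/kg/day before mating, climbed in steps of 0.5 mg/kg/day to 15 mg/kg/day, and stayed on oxy through mating, gestation and lactation. Both exposed groups therefore received oxy through nursing dams after birth, and only IUO pups were also exposed before it. Each pup gave 1 RNA-seq library of bulk PFC tissue. The labels do not name the dam, litter or sex of a pup, so the p-values below measure the spread between pups, some of which may be littermates, and each difference between groups cannot be told apart from a difference between litters.

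Oxy is an opioid analgesic that acts mainly on the mu opioid receptor, a Gi-coupled receptor that lowers cyclic AMP and dampens neuronal firing. It crosses the placenta and passes into milk. Its entry into the brain is set by the blood-brain barrier, a layer of endothelial cells with tight junctions and ATP-driven efflux pumps that is still maturing in the early post-natal rat. The question asked here was which transcripts differed from saline in the same direction in both exposed groups, with PNO and IUO given equal weight.

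The estimated read counts summed to between 18381819 and 26084780 per pup, and the sums did not separate exposed from SAL pups (exact permutation test, two-sided, p = 0.959, adjusted p = 0.966). Mitochondrial transcripts made up 10.8% ± 2.21 (SD, n = 12) of the counts in exposed pups and 10.7% ± 2.99 (SD, n = 6) in SAL pups (exact permutation test, p = 0.966). Cortical excitatory neuron transcripts were present in every pup, with *Slc17a7*, the vesicular glutamate transporter of these cells, at 845 CPM or more (CPM, read counts scaled to the normalised library size). The dissected tissue varied. Summed over the list, striatal neuron markers ranged from 360.5 to 2402.5 CPM and myelin genes from 2091 to 16433 CPM across the 18 libraries. In both lists the exposed groups stood on opposite sides of SAL: the median log2 fold change was -0.29 in PNO and 0.49 in IUO for the striatal markers, and 0.68 in PNO and -0.55 in IUO for the myelin genes. The pooled medians were 0.10 and 0.05. The fits with each list as a covariate kept the sign of all 24 leading genes named below. Those genes were chosen for a small p and a shared sign in these data, which favours a kept sign. With the myelin list 23 of the 24 kept an unadjusted p under 0.05. Of the 194 higher and 292 lower same-direction genes counted below, 153 and 218 kept it with the striatal list, and 186 and 248 with the myelin list.

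One SAL library stood apart. SAL pup 6 carried high levels of transcripts typical of olfactory bulb neurons. *Cdhr1*, a cadherin-related gene of mitral cells and photoreceptors, was at 659 CPM in SAL pup 6 and 102 CPM in SAL pup 1, against 14.5 to 23.0 CPM in the other SAL pups. Summed over 7 olfactory bulb markers that were chosen after the values were seen (*Eomes*, *Tbx21*, *Cdhr1*, *Doc2g*, *Shisa3*, *Sp8* and *Pax6*), SAL pup 6 reached 795 CPM and SAL pup 1 reached 137 CPM. SAL pups 2 to 5 lay between 29.6 and 37.2 CPM, the PNO pups between 26.9 and 43.8 CPM and the IUO pups between 49.5 and 75.1 CPM on this sum. *Cdhr1* made up most of it in SAL pups 6 and 1 and in the IUO pups. Other markers differed: IUO pups had 1.27 to 2.57 CPM of *Doc2g*, against 1.01 to 2.53 in SAL pups 2 to 5. For *Pax6* the ranges were 7.45 to 10.3 and 5.15 to 6.75. SAL pup 6 was the highest of all 18 pups for each of the 7 genes. The main counts, and many of the list and gene results, are therefore also given without SAL pup 6 or without SAL pups 6 and 1.

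No gene passed the false discovery threshold in the comparison of exposed with SAL pups. Of 15703 genes tested with edgeR's quasi-likelihood test, 0 (0%) had a Benjamini-Hochberg adjusted p under 0.05, and the smallest adjusted p was 0.801. At an unadjusted p under 0.05 there were 500 genes, or 3.18% of those tested, of which 201 (1.28%) were higher and 299 (1.9%) lower in exposed pups. Uniform p-values would place 5% of genes there, so the count was below that level. DESeq2 called 3 genes at an adjusted p under 0.05 (*Abcg2*, *Phf13* and *Frmd7*) and limma-voom with sample quality weights called 0. The median standard error of a log2 fold change was 0.13, with quartiles of 0.08 and 0.21. A call needs a change several times its standard error, so changes of that size, and some larger ones, were not detectable in single genes.

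Of all genes tested, 7884 (50.2%) had the same sign in PNO and IUO. Both groups were compared with the same 6 SAL pups, which by itself favours a shared sign. The share was still near an even split, so no agreement between PNO and IUO is read from this count. Among the 500 genes at an unadjusted p under 0.05 in the pooled comparison, 486 (3.09% of all tested) had the same sign in both groups and 14 did not, a split that the pooled contrast itself favours. Of the 486, 194 (1.24%) were higher and 292 (1.86%) lower. A change of at least 1.5-fold was present in 91 of them (0.58%), with 24 higher and 67 lower. Taken alone, PNO had 706 genes (4.5%) and IUO 1081 genes (6.88%) at an unadjusted p under 0.05 against the same SAL pups, and 81 genes (0.516%) met that level in each group with the same sign, 29 higher and 52 lower, a count that the shared SAL pups favour in the same way. In 305 of the 486 genes the IUO difference was the larger in size. The IUO minus PNO difference had an unadjusted p under 0.05 in 99 of the 486 genes, beside 15.3% of all genes tested.

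Exposed and SAL pups did not separate fully in any gene (0 of 15703, 0%). In 10 genes (0.0637%) at least 11 of the 12 exposed pups lay beyond all SAL pups, 4 of them higher, with *Ghdc* and *Lsp1* the named ones, and 6 lower (*Phf13*, *Podxl*, *Dll4*, *Shc1*, *Cdr2l* and *Cbx2*).

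Both the higher and the lower genes depended on which SAL pups were included, most of all on SAL pup 6. Without SAL pup 6, 368 genes had an unadjusted p under 0.05. The same-direction count was then 357, with 142 higher and 215 lower. Of the original genes, 135 of the 292 lower and 88 of the 194 higher kept an unadjusted p under 0.05 with the same sign. Leaving out any other single SAL pup kept 202 to 239 of the lower and 107 to 140 of the higher genes. Without SAL pups 6 and 1 the same-direction count was 386 and 98 of the lower and 64 of the higher genes were kept.

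The expression levels of the 12 higher genes with the smallest p, all with named transcripts and at least 1 CPM on average, were led by *Abcg2* (ENSRNOG00000007041). This gene encodes an ATP-driven efflux pump of the blood-brain barrier and other barrier tissues. *Abcg2* had a lowest, median and highest value of 3.998, 4.59 and 6.50 CPM in SAL pups, of 5.97, 9.20 and 11.1 CPM in PNO pups, and of 6.22, 9.1 and 10.7 CPM in IUO pups. Of the 12 exposed pups, 10 lay above the highest SAL pup, and 1 PNO and 1 IUO pup overlapped the SAL range. The pooled difference was 0.81 ± 0.16 (log2, SE) with a 95% interval of 0.48 to 1.14, a 1.75-fold higher level (edgeR, unadjusted p = 6.64e-05, adjusted p = 0.801). It was of like size by both routes, at 0.78 in PNO and 0.84 in IUO, and the IUO minus PNO difference was 0.06 (unadjusted p = 0.733). The unadjusted p stayed under 0.05 in each of the 18 fits that left out 1 pup, and the difference was 0.75 without SAL pup 6 and 0.71 without SAL pups 6 and 1. *Abcb1a*, which encodes the other main efflux pump of brain endothelium (P-glycoprotein) and was looked up after *Abcg2* was seen, differed by -0.06 with a 95% interval of -0.26 to 0.15. *Abcg2* overlaps an uncharacterised locus in the RefSeq annotation, as do *Bcl6b*, *Cdh19*, *Cdr2l*, *Col4a1*, *Erbb2*, *F2r*, *Lrrc28*, *Myo18b*, *P3h4*, *Pdyn*, *Podxl*, *Rpl32* and *Tie1* among the genes named here. Of the others, *Abcb1a* overlaps *Rundc3b*, *Dll4* overlaps *Dll4l1*, *Lsp1* overlaps *Prr33*, *Oprm1* overlaps *Ipcef1*, *P2ry12* overlaps *Med12l*, *Pomc* overlaps *Efr3b* and *Grid1* overlaps a microRNA gene and a pseudogene. The libraries do not mark strand, so reads of such neighbours may be shared.

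*Ghdc* had the largest difference among the 12 higher genes. It ranged from 2.89 to 11.01 CPM in SAL pups, from 7.67 to 17.2 in PNO pups and from 12.6 to 17.02 in IUO pups. In exposed pups 11 of 12 lay above the highest SAL pup, and the SAL pups themselves split, with pups 1 to 3 at 9.57 to 11.01 CPM and pups 4 to 6 at 2.89 to 4.65 CPM. The pooled log2 difference was 1.05 ± 0.27 (unadjusted p = 0.00105). *Lsp1*, which encodes an actin-binding protein of leukocytes, was scarce, at 0.38 to 0.88 CPM in SAL, 0.68 to 1.52 in PNO and 1.06 to 1.77 in IUO. Again 11 of 12 exposed pups exceeded the highest SAL pup, with a difference of 0.83 ± 0.21 (unadjusted p = 0.000797).

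*F2r*, which encodes the thrombin receptor PAR1, was more abundant and differed less. Its lowest, median and highest values were 24.9, 27.3 and 31.5 CPM in SAL, 29.1, 30.4 and 33.1 CPM in PNO and 31.5, 33.4 and 35.7 CPM in IUO. PNO pups overlapped SAL and most IUO pups lay above it, for a pooled difference of 0.22 ± 0.05 (unadjusted p = 0.000767). *Ift88*, which encodes an intraflagellar transport protein needed for cilia, was an IUO difference in the main. It was 0.56 higher in IUO (unadjusted p = 3.17e-05) and 0.15 higher in PNO (unadjusted p = 0.148), and the groups differed from each other by 0.41 (unadjusted p = 0.000842). *Grid1*, the delta-1 glutamate receptor subunit, had the same order, at 0.36 in IUO and 0.15 in PNO. The remaining higher genes were *RGD1564606* (0.85), *Myo18b*, an unconventional myosin (0.56), *Rabif*, a chaperone of Rab GTPases (0.54), *P3h4*, which takes part in collagen modification (0.32), *Eral1*, which acts in assembly of the small mitochondrial ribosomal subunit (0.24), and *Lrrc28* (0.18). Each of these 6 log2 differences had an adjusted p of 0.945 or more in edgeR, and overlapped the SAL range in at least 2 exposed pups.

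**Figure D1:**
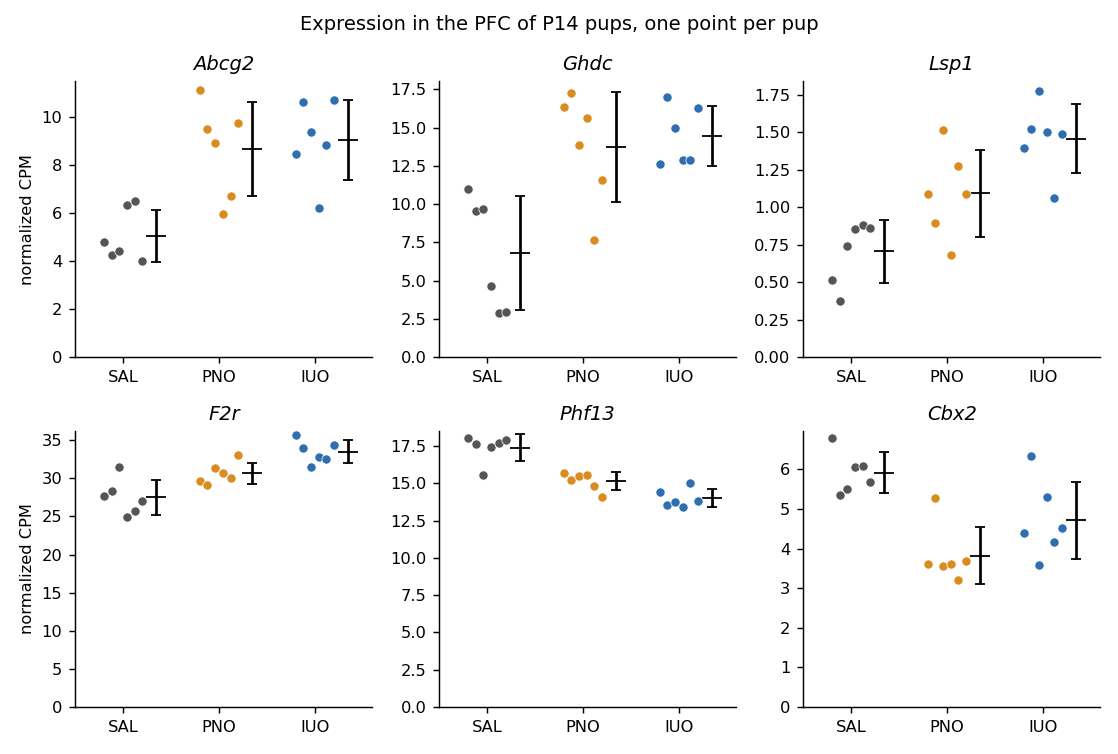
Normalised CPM of 6 genes in each P14 pup, by group (SAL, PNO, IUO; 6 pups each); coloured points are pups, the black dash and bars beside them the mean and SD, and every axis starts at 0. *Abcg2*, *Ghdc*, *Lsp1* and *F2r* sit higher and *Phf13* and *Cbx2* lower in both exposed groups, with at least 1 exposed pup inside the SAL range in each panel.

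Among the 12 lower genes, *Phf13* separated the groups most cleanly. Its product is a PHD finger protein that binds histone H3 methylated at lysine 4. *Phf13* was at 15.6, 17.7 and 18.0 CPM (lowest, median, highest) in SAL, 14.1, 15.4 and 15.7 CPM in PNO and 13.4, 13.8 and 15.0 CPM in IUO. Below the lowest SAL pup lay 11 of 12 exposed pups, and without SAL pup 6 or SAL pup 3 the groups did not overlap. The difference was small, at -0.26 ± 0.05 (edgeR, unadjusted p = 0.000102, adjusted p = 0.801). *Cbx2*, a chromobox subunit of Polycomb repressive complex 1, was at 5.35 to 6.79 CPM in SAL, 3.20 to 5.27 in PNO and 3.58 to 6.35 in IUO. It also had 11 of 12 exposed pups below every SAL pup, with a difference of -0.48 ± 0.12 (unadjusted p = 0.00108).

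*Dsp*, which encodes the desmosomal protein desmoplakin, was at 1.48, 1.95 and 2.98 CPM in SAL, 0.959, 1.40 and 1.80 CPM in PNO and 0.655, 0.955 and 1.29 CPM in IUO. The step down was larger in IUO (-1.16) than in PNO (-0.57), and the difference between the groups was -0.59 (unadjusted p = 0.0179). *Rtel1*, a DNA helicase of telomeres, went the same way, at -0.76 in IUO and -0.36 in PNO. Its locus overlaps *Gmeb2* and *Stmn3* in the RefSeq annotation, so the same limit holds. *Tnfrsf11b*, which encodes osteoprotegerin, was lower by 0.29 on the log2 scale in PNO and by 0.56 in IUO. *Car3*, carbonic anhydrase 3, had a pooled difference of -1.64, and its SAL pups ran from 2.64 to 38.2 CPM, a range that held every exposed pup.

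Some of the 12 lower genes rested on SAL pups 6 and 1. *Frmd7*, which encodes a FERM-domain protein, was at 31.9 CPM in SAL pup 6 and 6.42 CPM in SAL pup 1, and between 0.79 and 1.72 CPM in the other SAL pups. Exposed pups lay between 0.49 and 1.88 CPM. Its difference of -2.67 ± 0.59 became -1.02 without SAL pup 6 and -0.16 without SAL pups 6 and 1 (unadjusted p = 0.528). *Eomes*, a T-box transcription factor of intermediate progenitors and olfactory bulb projection neurons, went from -3.21 to -1.09 (unadjusted p = 0.119) and then to -0.004 (unadjusted p = 0.995). *Cdhr1* turned from -2.29 to 0.66 (edgeR, unadjusted p = 0.00123, adjusted p = 0.99982) once both SAL pups were left out, since the IUO pups, at 32.8 to 57.2 CPM, stood above the other SAL pups. *Prss56*, a serine protease gene, went from -1.73 to -0.18 and *Cdh19*, a glial cadherin gene, from -2.21 to -0.38 in the same fit. The other 7 lower genes kept an unadjusted p under 0.05 without both pups.

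**Figure D2:**
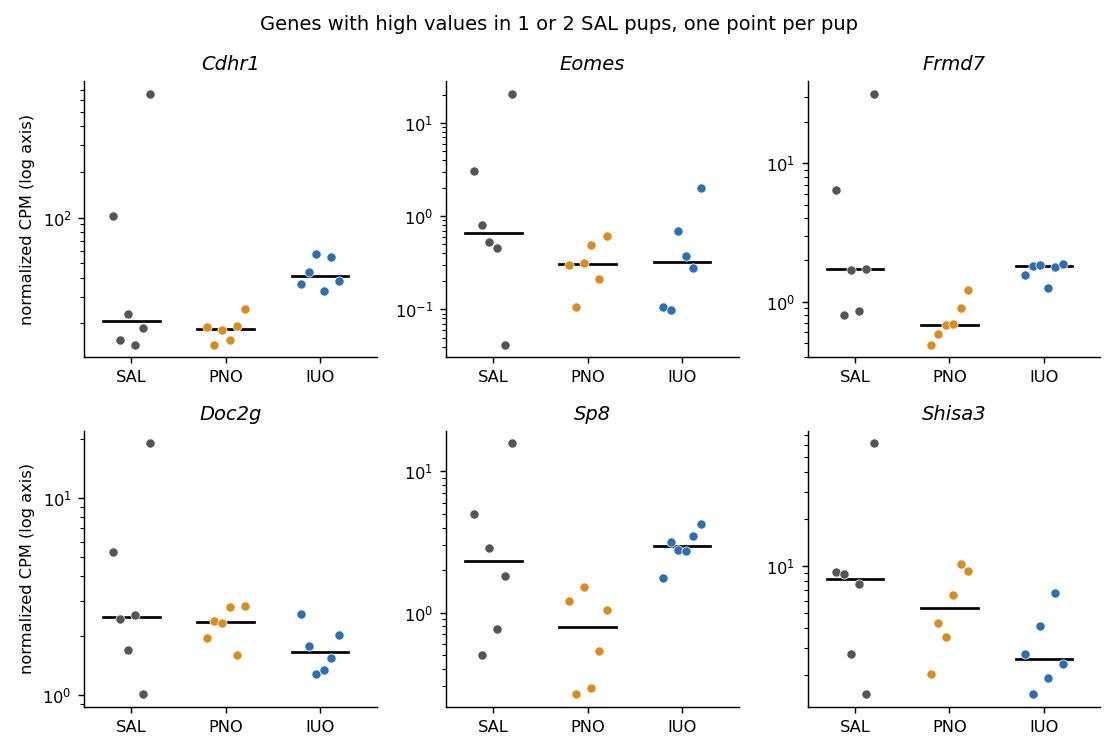
Normalised CPM on a log axis for 6 genes of olfactory bulb type or that move with them, one point per pup, with the group median as a black line. SAL pup 6 is the top point in each SAL column (659 CPM for *Cdhr1*, 20.6 for *Eomes*, 31.9 for *Frmd7*).

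**Figure D3:**
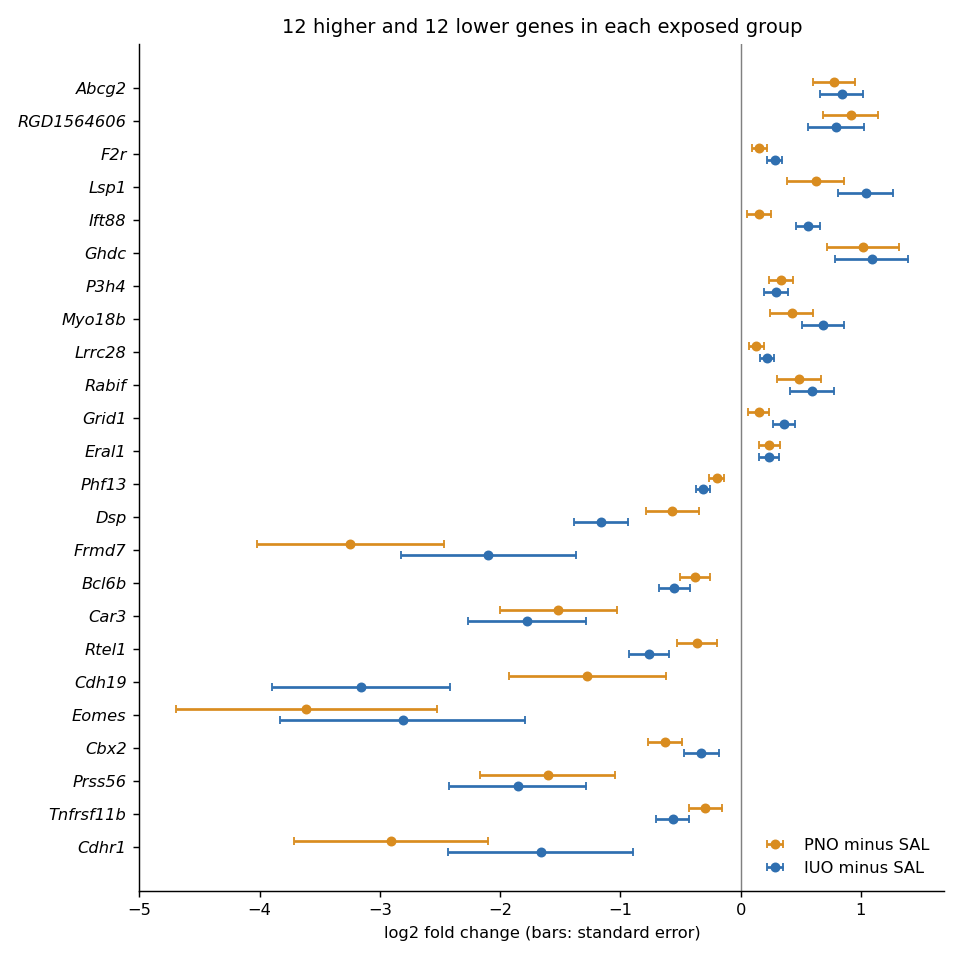
Log2 fold change against SAL of the 12 higher and 12 lower genes, separately for PNO and IUO (6 pups each, both against the same 6 SAL pups); points are edgeR estimates and bars the standard error. All 24 genes have the same sign in both groups because the rule that chose them asked for it, and the widest bars belong to genes with high values in SAL pup 6.

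Of 15 endothelial markers tested, 11 had a pooled log2 fold change below 0 and 4 above it, with a median of -0.11 beside -0.0035 over all genes, and 10 were below 0 in both exposed groups. The median was -0.11 in PNO and -0.09 in IUO. *Tie1*, an endothelial receptor tyrosine kinase, and *Slc16a1*, the lactate transporter of these cells, had values below 0 at an unadjusted p under 0.05, a level that 1.9% of all genes reached in that direction, and no member passed the adjusted threshold. *Tie1* was at -0.11 (unadjusted p = 0.114) without SAL pup 5 and at -0.13 (unadjusted p = 0.0852) without SAL pup 3. Of the list, 13 of 15 members were below 0 without SAL pup 6 and 14 of 15 without SAL pups 6 and 1. *Cldn5*, the main tight junction claudin of brain endothelium, differed by -0.02 with a 95% interval of -0.30 to 0.26. In bulk tissue, fewer endothelial cells and less RNA per endothelial cell cannot be told apart. The summed level of the list was 534.2 to 704.3 CPM in SAL, 525.2 to 675.0 in PNO and 534.9 to 640.9 in IUO, so the totals overlapped. Of 13 markers of mural cells, the pericytes and smooth muscle cells of vessel walls, 11 were below 0 (median -0.07), 4 of them in both exposed groups. None of the 13 reached an unadjusted p under 0.05 in edgeR. That list turned without SAL pups 6 and 1, with 8 of 13 above 0 and a median of 0.02.

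Further vascular genes outside the list are described here. Those other than *Bcl6b* were singled out after their values were seen, so their shared direction adds no support, and *Abcg2*, also a gene of barrier endothelium, had a value above 0. *Bcl6b*, a transcriptional repressor of endothelium and 1 of the 12 lower genes, was at 6.10, 7.14 and 7.90 CPM in SAL, 4.21, 5.44 and 6.60 in PNO and 4.09, 4.82 and 5.51 in IUO. In 10 of 12 exposed pups it was below the lowest SAL pup, with a difference of -0.46 ± 0.11 (edgeR, unadjusted p = 0.000431, adjusted p = 0.945), and -0.51 without SAL pup 6. *Dll4*, the Notch ligand of sprouting vessels, was at 5.11, 5.91 and 6.04 CPM in SAL, 3.68, 4.34 and 5.24 in PNO and 4.38, 4.76 and 5.08 in IUO. Only 1 PNO pup reached the SAL range, and the difference was -0.32 ± 0.09 (unadjusted p = 0.00221). *Podxl*, a sialomucin of the vessel lumen, also had 11 of 12 exposed pups below every SAL pup (-0.22, unadjusted p = 0.00331). *Cxcr4*, a chemokine receptor of migrating neurons and vessels, differed by -0.45 (unadjusted p = 0.00247) and by -0.31 without SAL pup 6. The VEGF receptor gene *Kdr* differed by -0.19 with a 95% interval that crossed 0, from -0.39 to 0.02.

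*Col4a1* and *Col4a2* encode the alpha chains of the type IV collagen network that wraps brain vessels. *Col4a1* was at 127, 145 and 163 CPM in SAL, 107, 125 and 129 in PNO and 115, 123 and 151 in IUO, with 7 of 12 exposed pups below the lowest SAL pup. The difference was -0.22 ± 0.07 (unadjusted p = 0.00449). *Col4a2* was at 103, 126 and 138 CPM in SAL, 71.3, 102 and 117 in PNO and 100.3, 115 and 137 in IUO. Its difference from SAL was -0.35 in PNO and -0.09 in IUO, and the IUO minus PNO difference was 0.26 (unadjusted p = 0.0227). The pooled unadjusted p of *Col4a2* was 0.0542 without SAL pup 1, 0.0582 without SAL pup 5 and 0.0821 without SAL pups 6 and 1. *Fn1*, fibronectin, differed by -0.27 (unadjusted p = 0.0204), by -0.22 without SAL pup 1 or SAL pup 3 (unadjusted p = 0.0629 and 0.062), and by -0.20 (unadjusted p = 0.112) without SAL pups 6 and 1. They were the 3 members with an unadjusted p under 0.05 among 16 tested in the list of meningeal fibroblast and matrix genes, beside 1.9% of all genes lower at that level. Of the 16, 4 were above and 12 below 0 with a pooled median of -0.06, but the medians were -0.19 in PNO and 0.06 in IUO, and only 4 members were below 0 in both. Without SAL pup 6 the list turned, with 10 above and 6 below 0 and a median of 0.05, and the median was 0.10 without SAL pups 6 and 1.

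The pair of collagen genes is shown here by sequence because they sit head to head and start from a shared stretch of DNA. In the RefSeq annotation of the GRCr8 build, *Col4a1* runs along the plus strand and *Col4a2* along the minus strand, and the 76 bases between their starts lie at chr16:84885521-84885596. Read 5′ to 3′ on the plus strand, with the GGGCGG box (a GC box) in capitals as it reads on this strand:
Col4a1-Col4a2: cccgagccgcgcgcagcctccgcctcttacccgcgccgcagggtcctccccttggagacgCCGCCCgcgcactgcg
The stretch is 78.9% G or C. A search of both strands for GGGCGG found 1 match, and CCAAT and TATAAA were not found in this window. Of 33469 rat promoters in the same annotation, 18.1% hold GGGCGG, 13% CCAAT and 4.6% TATAAA on either strand within the 76 bases before the start. A match is a description of letters and not of a bound site. The genome build of the deposited counts is not given in the sources used here, so no other coordinates are printed.

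**Figure D4:**
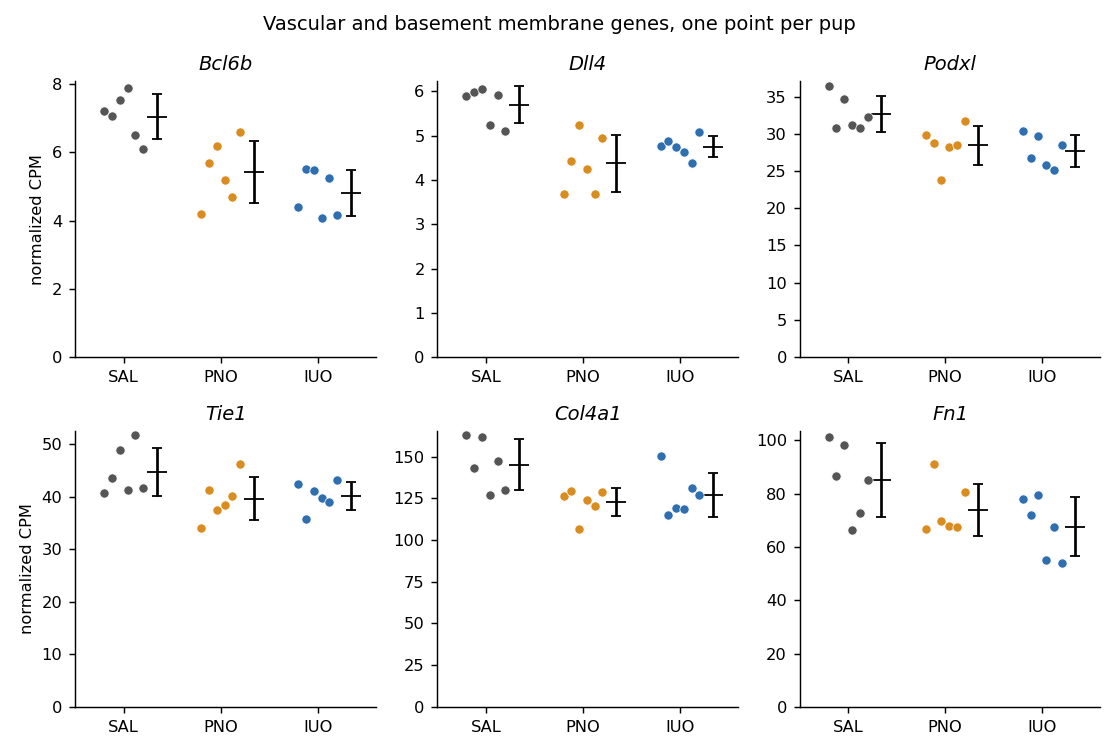
Normalised CPM of 6 vascular and basement membrane genes in each pup (SAL, PNO, IUO; 6 pups each), with the mean and SD in black and axes from 0. Exposed pups tend to lie in or below the lower part of the SAL range, with 11 of 12 below it for *Dll4* and *Podxl*.

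Of 8 opioid receptor and peptide genes tested, 0 had an unadjusted p under 0.05 and only *Oprk1* had the same sign in both exposed groups. *Oprm1*, the mu receptor and main target of oxy, was scarce, at 0.32 to 2.06 CPM in SAL, 0.29 to 2.33 in PNO and 0.63 to 1.23 in IUO, a difference of -0.01 with a wide 95% interval of -0.97 to 0.96. *Oprk1*, the kappa receptor, differed by 0.31 (-0.43 to 1.04) and *Oprd1*, the delta receptor, by -0.06 (-0.72 to 0.59). The nociceptin receptor gene *Oprl1* was the most tightly bounded, at 0.01 with an interval of -0.26 to 0.27. Of the peptide precursors, *Penk* (enkephalin) differed by -0.01 (-1.16 to 1.15), *Pdyn* (dynorphin) by 0.10 (-0.57 to 0.76), *Pnoc* (nociceptin) by 0.13 (-0.28 to 0.55) and *Pomc* by -0.23 (-0.98 to 0.52). Some of these values rested on single pups. Without SAL pup 1, *Oprk1* was at 0.73 (edgeR, unadjusted p = 0.0381) and *Pdyn* at 0.59 (unadjusted p = 0.0345), whereas *Oprk1* was at 0.10 without PNO pup 1 and *Pdyn* at -0.04 without SAL pup 6. The median of the 8 genes was -0.0002, and 0.35 without SAL pups 6 and 1. *Penk* and *Pdyn* are also abundant in striatal neurons, whose markers varied between libraries as given above.

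The medians of the synaptic lists were -0.02 over 27 glutamate receptor genes, -0.0009 over 19 GABA genes, 0.02 over 24 release genes and 0.01 over 23 postsynaptic genes, and no member of these 4 lists had an unadjusted p under 0.05. Without SAL pup 6 the medians were 0.06 with 21 of 27 above 0, 0.06 with 16 of 19, 0.05 with 19 of 24 and 0.08 with 20 of 23, in the same order. The smallest p in the glutamate receptor list was that of *Grik5*, a kainate receptor subunit, at 0.14 (unadjusted p = 0.0531), which was 0.26 in IUO and 0.02 in PNO. *Grid1*, the delta-1 glutamate receptor subunit given above among the higher genes, is in none of these 4 lists. In all, 27 of the 37 lists held no member at an unadjusted p under 0.05, including the clock, heat shock, lipid synthesis, ion channel, astrocyte and oxidative phosphorylation genes. The medians of 17 of the 37 lists changed sign without SAL pup 6, and of 20 without SAL pups 6 and 1. Among the 20 immediate-early genes, 14 were below 0, 8 of them in both groups, with a median of -0.10, and 8 were below 0 without SAL pup 6 with a median of 0.09. Beside 1.28% of all genes higher at an unadjusted p under 0.05, *Jund*, a subunit of the AP-1 factor, was the only member at that level. It was at 0.21 (edgeR, unadjusted p = 0.0384), and at 0.13 (unadjusted p = 0.139) without SAL pup 6. It kept that level in 9 of the 18 fits that left out 1 pup.

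*Tmem119* and *Selplg*, of the microglial list, differed by route. *Tmem119*, a microglial surface gene, was at 6.70 to 22.5 CPM in SAL, 10.4 to 14.1 in PNO and 2.90 to 6.00 in IUO. Its difference from SAL was -0.03 in PNO (unadjusted p = 0.905) and -1.34 in IUO (unadjusted p = 2.86e-05), and IUO differed from PNO by -1.32 (unadjusted p = 3.67e-05). The pooled value was -0.69, and -0.45 without SAL pup 3. *Selplg*, another microglial gene, had the same pattern, at 0.05 in PNO and -1.14 in IUO. *P2ry12*, the purinergic receptor of resting microglia, had values below 0 by both routes (-0.37 in PNO and -0.31 in IUO, edgeR, pooled unadjusted p = 0.0231), with unadjusted p = 0.0572 without SAL pup 6 and 0.0816 without SAL pup 3. The other 14 of 17 microglial genes had an unadjusted p above 0.05. Of all genes tested, 1.9% were lower at an unadjusted p under 0.05. Over the 17 genes, 11 were above 0, 10 of them in both exposed groups, with a median of 0.06, and the list's summed level overlapped between groups. All 6 blood cell genes had a pooled value above 0, with a median of 0.98 in IUO and 0.005 in PNO, and 0 of them had an unadjusted p under 0.05.

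Cytosolic ribosomal protein genes leaned on 1 library. Of 36 tested, 34 were above 0 with a pooled median of 0.05. The median was 0.11 in PNO and -0.01 in IUO, and 17 of the 36 were above 0 in both groups. Beside 1.28% of all genes higher at an unadjusted p under 0.05, *Rplp0* (0.20, unadjusted p = 0.00896) and *Rpl32* (0.37, unadjusted p = 0.0473) were at that level, neither past the adjusted threshold. *Rpl32* kept an unadjusted p under 0.05 in 4 of the 18 fits that left out 1 pup, with an unadjusted p of 0.132 without SAL pup 2. Without SAL pup 6, only 10 of 36 were above 0 and the median was -0.03, so the direction of the family turned. Reads of ribosomal protein genes may also be shared with their many processed copies. Of 16 interneuron markers, 6 were above 0 with a median of -0.17, which became 7 of 16 and -0.04 without SAL pup 6, and 10 of 16 and 0.16 without SAL pups 6 and 1. With all pups the median of this list was -0.13 in PNO and -0.13 in IUO. The 2 members at an unadjusted p under 0.05, beside 1.9% of all genes lower at that level, were *Sp8* and *Dlx2*. They are transcription factors that olfactory bulb interneurons also express, and without SAL pup 6 they had unadjusted p-values of 0.297 and 0.513. Single members of 3 other lists were also at this level, namely *Mx2*, an interferon-induced gene (-0.43, unadjusted p = 0.0174), *Erbb2*, a co-receptor in neuregulin signalling (-0.38, unadjusted p = 0.0246), and *Eomes* among 23 cell cycle and progenitor genes. Of these 23, 20 were below 0 in the pooled comparison and 10 in both groups, with medians of -0.26 in PNO and 0.004 in IUO, and without SAL pups 6 and 1 the count below 0 was 15. *Erbb2* was at -0.28 (unadjusted p = 0.0945) without SAL pup 6, with an unadjusted p of 0.183 without SAL pups 6 and 1, where that of *Mx2* was 0.0646.

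**Figure D5:**
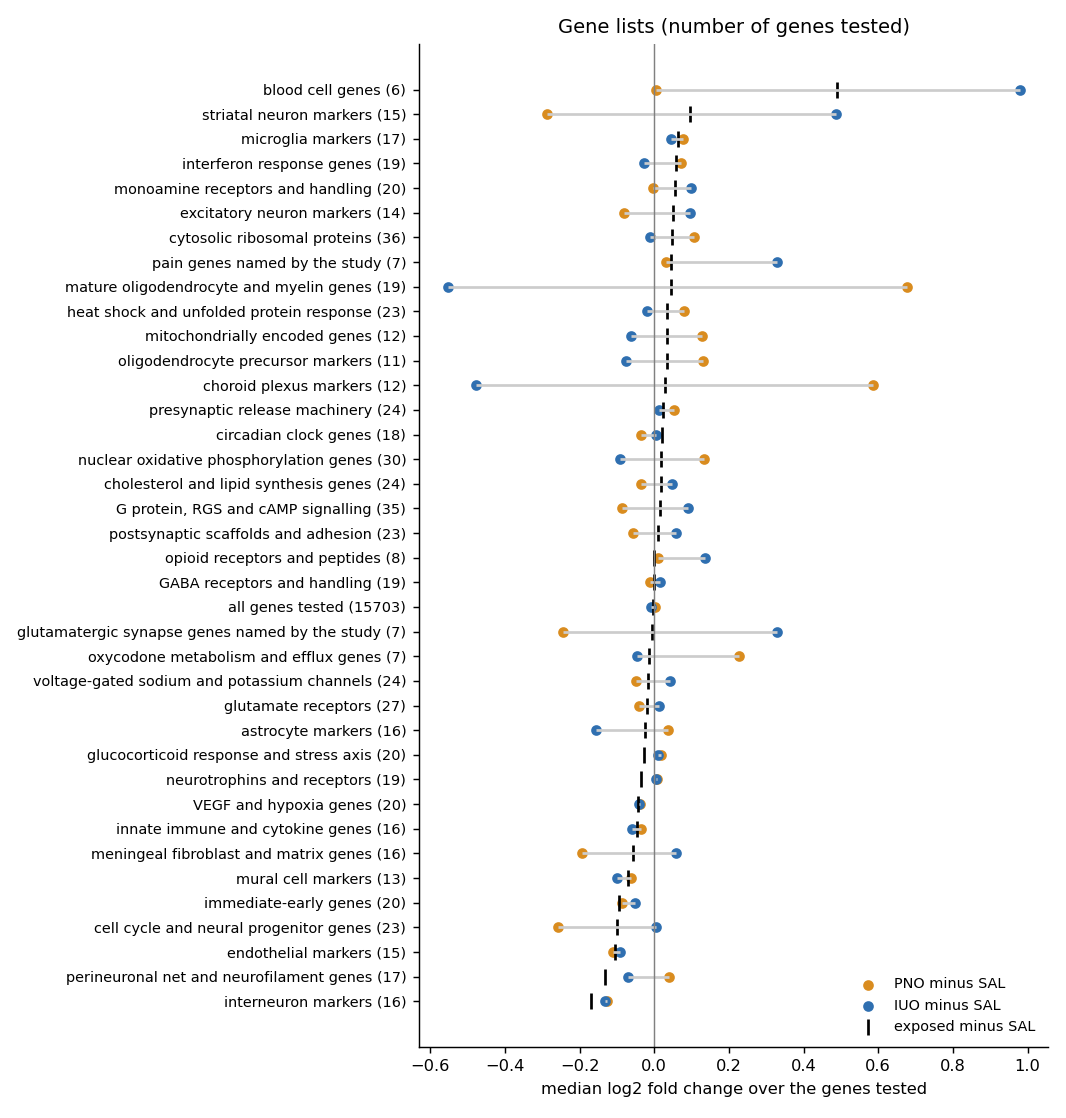
Median log2 fold change of each gene list against SAL, for PNO and IUO separately and pooled; the number of genes tested is in brackets and no test was run on a list. PNO and IUO fall on opposite sides of 0 for myelin, striatal and choroid plexus genes. They fall on the same side, at about -0.1, for endothelial markers. Other lists also share a side, below 0 for interneuron markers (-0.13 and -0.13), immediate-early genes (-0.09 and -0.05) and mural cell markers (-0.06 and -0.10). Microglia markers share the side above 0 (0.08 and 0.04).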

How the data were processed

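Each of 18 pups had 1 gene table. In it the authors deposited expected counts (estimated reads per gene, not normalised), TPM and FPKM values. The program, aligner, genome build and annotation are not given in the sources used here. Libraries were TruSeq V2 (unstranded), 75 bp single reads. Each expected count was rounded to an integer before testing. TPM and FPKM were not used. Of 32623 genes listed, 15703 passed filterByExpr. TMM-normalised counts were fitted in edgeR 4.0.16 (R 4.3.3) as 1 quasi-likelihood model of 3 groups (15 residual degrees of freedom), with the contrast of the mean of PNO and IUO minus SAL and Benjamini-Hochberg adjustment over all genes tested. CPM values are TMM-normalised. limma 3.58.1 and DESeq2 1.42.0 were alternatives. The fitting code was tested on simulated data.

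Genes named were the 12 higher and 12 lower genes with the smallest unadjusted p (named symbol, mean of at least 1 CPM, same sign in PNO and IUO), all opioid genes, and in each other list the members with an unadjusted p under 0.05, or up to 2 with the smallest p; some of the latter are described only by their list's counts, and 1 is not reported here. Genes said to be singled out after their values were seen fall outside that rule, among them *Slc17a7*, *Cldn5*, *Abcb1a* and *Cxcr4*. The comparison, the 37 lists and the tests were chosen with earlier results of these data known. Exact permutation tests covered 4 library measures. Promoter sequence came from RefSeq (GRCr8). Alternatives covered scaling, filtering, test, covariates, the replicate block and leaving out each pup.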

Additional observations from a re-analysis of the deposited data

Results flagged for a closer look

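Among 95 named genes, 21 of 285 groups of 6 pups (7.37%) held 1 pup whose log2 CPM stood far from the other 5 by Dixon's test, a test that flags about 5% of groups by chance. High pups were SAL 1 for *Grik2* (6.47), PNO 4 for *Irak4* (2.33), IUO 3 for *Asns* (5.78), PNO 1 and IUO 2 for *Oprk1* (2.97 and 3.11), PNO 1 for *Ndufs1* (7.49) and *Prlr* (-0.011), IUO 2 for *Oprm1* (0.40) and PNO 2 for *Cbx2* (2.42). Low pups were SAL 3 for *Phf13* (3.97), SAL 5 for *Acsbg1* (7.27), IUO 2 for *Ndufs1* (6.92), *P3h4* (3.62) and *Acan* (1.78), SAL 1 for *Anpep* (1.96) and *Per2* (4.95), PNO 3 for *Col4a1* (6.74), IUO 1 for *Rpl32* (3.62), IUO 6 for *Gphn* (6.54), and SAL 6 for *RGD1564606* (1.53) and *Uqcrc1* (7.80).

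Of the 24 leading genes, 5 differed between the routes at an unadjusted p under 0.05. In edgeR the IUO minus PNO log2 fold change was 0.41 for *Ift88* (unadjusted p = 0.000842), -0.59 for *Dsp* (unadjusted p = 0.0179), -0.40 for *Rtel1* (unadjusted p = 0.0283), -1.88 for *Cdh19* (unadjusted p = 0.0228) and 0.21 for *Grid1* (unadjusted p = 0.0282), beside 15.3% of all genes tested at that level.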

How the results depend on the processing

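There were 6 pups per group with depths of 18381819 to 26084780 counts, and how much of the error came from depth was not tested. No count of adjusted calls left 0 when any pup was left out (0 to 0, and 0 to 0 with 1.5-fold). DESeq2 called 3 genes, 2 of them by 1.5-fold, and edgeR with no filter on low counts called 1, *RGD1565566* (1 by 1.5-fold). Leaving out 1 pup at a time gave 357 to 656 same-direction genes at an unadjusted p under 0.05, 142 to 309 of them higher and 215 to 404 lower, 73 to 152 with 1.5-fold, 61 to 126 in each exposed group alone, and 0 to 5 genes with no overlap between exposed and SAL pups. Some pups moved a count by over 1.5 times. The higher genes numbered 309 without SAL pup 4. The 1.5-fold genes numbered 140, 152 and 143 without SAL pups 2, 4 and 5, and the genes in each group alone 123 and 126 without SAL pups 4 and 5. The 5 genes with no overlap without SAL pup 3 were *Top3b*, *Phf13*, *Tor4a*, *Rabif* and *F2r*. Without SAL pups 6 and 1, an alternative chosen after seeing the data, there were 3 (*Phf13*, *Slc38a6* and *Prlr*).

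Without TMM scaling the higher genes numbered 125, or 22.5% of the same-direction genes against 39.9%, and the median of all genes was -0.03. limma-voom with sample quality weights, which changes both the test and the weight of each pup, gave 781 same-direction genes, 381 of them higher, and 127 in each group alone. Without the filter there were 893, 625 of them lower, 535 with 1.5-fold, 153 in each group alone and 2 with no overlap (*Slc38a6* and *SNORA73*). With the myelin list as a covariate 41 genes were left in each group alone. PNO alone gave 297 higher genes and 195 with 1.5-fold, and IUO alone 1081 genes, 474 higher, 607 lower and 251 with 1.5-fold. The causes were not tested.

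The replicate numbers were not taken to pair the pups, since same-numbered pups correlated at -0.301 to 0.488 and 8 of 18 pairs were over 0.1. In 7 of the 18 pairs the pup correlated best with its own number, 4 of them between SAL and PNO, which is a hint from the data and not from the design. With the replicate block, 514 genes had an unadjusted p under 0.05 and the smallest adjusted p was 1. Of the 24 leading genes, 23 kept an unadjusted p under 0.05, and *Cdhr1* was at -0.83 (unadjusted p = 0.214).

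All 24 leading genes kept their sign in every alternative other than *Cdhr1* without SAL pups 6 and 1, although 3 were not tested under the filter of at least 1 CPM in 6 pups. The following log2 fold changes turned sign. In PNO alone these were *Grik2* (-0.044), *Selplg* (0.054), *Rims2* (-0.0057), *Irak4* (0.053), *Pde10a* (-0.19), *Acsbg1* (0.047), *Pomc* (0.13), *Kcna2* (0.035), *Pdyn* (-0.13), *Neurod2* (-0.039), *Mt-nd2* (0.026), *Kcnc1* (0.10), *Ddit4* (0.026), *Errfi1* (0.025), *Tbr1* (-0.18) and *Cldn5* (0.053). In IUO alone they were *Meis2* (0.12), *Penk* (0.28), *Enpp6* (-0.16), *Oprd1* (0.23), *Pnoc* (-0.12), *Oprl1* (-0.13), *Oprm1* (0.043), *Tspan2* (-0.062), *Vcan* (0.063), *Cldn2* (-0.38) and *Camk2a* (0.10). Without SAL pups 6 and 1 they were *Dlx2* (0.15), *Meis2* (0.14), *Sp8* (0.091), *Penk* (0.49), *Fezf2* (-0.044), *Oprd1* (0.21), *Cdhr1* (0.66), *Pnoc* (-0.056), *Oprl1* (-0.032), *Oprm1* (0.74), *Tspan2* (-0.015), *Neurod2* (-0.022), *Acan* (0.0053), *Mt-nd6* (-0.061), *Vcan* (0.066), *Errfi1* (0.0049), *Doc2g* (0.062), *Camk2a* (0.21) and *Slc17a7* (-0.056). In limma-voom with these weights they were *Gpr37* (-0.049), *Enpp6* (-0.12), *Pomc* (0.11), *Oprl1* (-0.0094) and *Camk2a* (0.054). With the replicate block they were *Penk* (0.19), *Pomc* (0.0061), *Oprl1* (-0.0027), *Oprm1* (0.056) and *Camk2a* (0.023). With a list as covariate they were *Enpp6* (-0.0025), *Pde10a* (-0.020), *Pomc* (0.047) and *Camk2a* (0.019) for the striatal list, *Oprm1* (0.046) and *Camk2a* (0.074) for the myelin list, and *Penk* (0.27) for the choroid plexus list. *Penk* was 0.022 in the fit of 2 groups, and *Oprl1* was -0.015 without TMM scaling and -0.0020 without the filter. With 1 pup left out the ranges that crossed 0 were, for the opioid genes, *Penk* (-0.20 to 0.66), *Oprd1* (-0.21 to 0.064), *Pomc* (-0.44 to 0.26), *Pnoc* (-0.0024 to 0.36), *Oprl1* (-0.043 to 0.063), *Oprm1* (-0.43 to 0.56) and *Pdyn* (-0.041 to 0.59), and for other genes *Enpp6* (-0.019 to 0.24), *Neurod2* (-0.0029 to 0.28), *Acan* (-0.38 to 0.060), *Vcan* (-0.16 to 0.023), *Mt-nd2* (-0.24 to 0.055), *Cldn2* (-0.35 to 1.71), *Tbr1* (-0.063 to 0.17), *Camk2a* (-0.17 to 0.23), *Slc17a7* (-0.020 to 0.22) and *Cldn5* (-0.12 to 0.042). Each main value of these genes other than those of *Cdhr1*, *Dlx2*, *Sp8*, *Selplg* and *Doc2g* had an unadjusted p above 0.05.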

Other observations

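A pair of transcripts was present in some pups and near 0 in others. Both were singled out after their values were seen. *RGD1565566*, the gene called when no filter was used, had 262, 208 and 136 expected counts in SAL pups 4, 5 and 6 and at most 2 in the other 15 pups. The same 3 SAL pups had the lowest *Ghdc* values, at 2.89 to 4.65 CPM. *Rn50_5_0009.1* had its highest SAL value, 0.05 CPM, in SAL pup 1 and was listed at 0 in the other 5 SAL pups. It reached 1.17 CPM in PNO pup 1 and 0.67 to 1.62 CPM in 5 of 6 IUO pups, and was at 0 in 3 PNO pups and 1 IUO pup (edgeR, unadjusted p = 0.000569, adjusted p = 0.945). No fold change is given for either gene, since whole groups lay at or near 0.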
